A study of Mus musculus with 6 samples.

Results

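Rab GTPases are small membrane switches that steer vesicle traffic, and the series holds 57 genes whose symbol is Rab followed by a number and, for most, a letter. They were taken by that name pattern from the 37583 gene identifiers of the deposited expression table, whatever their values were, and each was matched to the read counts by its identifier. The RNA came from EGFP-positive cells sorted in 2 rounds from the medulla of mouse kidneys. There were 3 samples taken 2 h after sham surgery and 3 taken 2 h after renal ischemia-reperfusion injury (IRI), in which blood flow to the kidney is cut off and then let back in. All mice were 12 weeks old and carried the same B1 VATPase EGFP transgene, which according to the design text marks intercalated cells, and each sample pooled 4 kidneys of 2 mice. The labels name no strain and no further allele that differs between the groups. Nothing in them places the samples of a group in separate experiments. The p-values therefore rest on the spread between pooled samples, which may be partly technical.

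A Rab protein is switched on when an exchange factor (GEF) loads it with GTP, and off when a GTPase-activating protein (GAP) makes it hydrolyse the GTP. An active Rab recruits effectors to the membranes it marks, such as motors, tethers and the machinery that works with SNARE fusion proteins. Several Rabs act at more than one compartment, and each gene is grouped here under 1 of them. Intercalated cells, which move acid and base across the wall of the collecting duct, carry their vacuolar proton pump in vesicles and shift it to and from the plasma membrane by exocytosis and endocytosis. RNA levels do not show where a Rab protein is or how much of it is loaded with GTP.

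The transcripts marking intercalated cells were abundant in both groups, at a summed 12990 ± 1780 RPKM in sham and 12180 ± 1230 RPKM after IRI over 15 markers (SD, n = 3; RPKM is reads scaled to gene length and to sequencing depth, and compares levels between genes). Of these markers 5 were called lower: Bsnd (log2 -2.97, adjusted p = 7.69e-06), Hmx2 (log2 -2.95, adjusted p = 0.00104), Insrr (log2 -1.62, adjusted p = 0.00835), Atp6v1c2 (log2 -0.87, adjusted p = 0.0165) and Atp6v1b1, the B1 pump subunit itself (log2 -0.37, adjusted p = 0.0427). The call of Atp6v1b1 was lost on omitting sham 2, sham 3, IRI 1 or IRI 3 (adjusted p 0.0882 to 0.119). The labels enter the tissue as epididymis, and their genotype line adds that CX3CR1 controls EGFP. Of 16 markers of the epididymis, 3 passed the filter on low counts and 4 were at 0 in all samples, while Spink8 stood at 1691 ± 502 RPKM in sham. Cx3cr1 was read 1 time in sham and 1 time after IRI. Principal cell markers summed to between 8795 and 9772 RPKM in the sham samples and between 4190 and 8327 RPKM in the IRI samples, with 4 of 12 tested markers called lower. Aqp2 made up most of this sum, at 6711 ± 249 RPKM in sham and 4605 ± 1750 RPKM after IRI, with no call (adjusted p = 0.127). It was called lower by DESeq2 (adjusted p = 0.0486) and on omitting IRI 1 (adjusted p = 0.0119). Myeloid markers summed to between 33.18 and 162.1 RPKM in sham and between 109.5 and 173.3 RPKM after IRI. Most of that sum was Cd74, which had no call. Of 10 tested myeloid markers 3 were called higher and 7 had no call. Among the higher, Cd68 rose 41.9-fold, from 0.631 ± 0.226 to 25.67 ± 9.53 RPKM. Called lower were 33.3% of tested intercalated cell markers and 33.3% of principal cell markers, beside 21.2% of all genes tested. Called higher were 30.0% of tested myeloid markers, beside 24.2%. Proximal tubule, thick ascending limb and endothelial marker sums overlapped between the groups. The proximal tubule sum was nearly all Gpx3, at 4211 ± 987 RPKM in sham and 2812 ± 933 RPKM after IRI with no call. The part of these other cells in the Rab results was not tested, and in bulk samples fewer cells of a type and less RNA per cell cannot be told apart.

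The promoters of 5 Rab genes that the results turn on are shown first, because these genes moved in opposite directions in the same samples. They are the 2 Rab genes called higher and the 3 called lower with the smallest p-values, among those called alike in all 16 alternative analyses. Each sequence is the 250 bases before the gene's start as listed by RefSeq on GRCm38.p6, read 5′ to 3′ on the strand of the gene. Capitals mark matches, on either strand, to the CCAAT box (CCAAT, or ATTGG on the other strand), the GC box (GGGCGG, or CCGCCC) and, in Rab7l1, the C/EBP site (TTGCNNAA).
Rab11a (higher after IRI, chr9:64737757-64738006, minus strand): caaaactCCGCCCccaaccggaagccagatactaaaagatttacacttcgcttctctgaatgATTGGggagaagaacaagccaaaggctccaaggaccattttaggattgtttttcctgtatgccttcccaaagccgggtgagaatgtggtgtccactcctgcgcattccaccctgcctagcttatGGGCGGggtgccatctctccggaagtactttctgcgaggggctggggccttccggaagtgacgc
Rab22a (higher after IRI, chr2:173659595-173659844, plus strand): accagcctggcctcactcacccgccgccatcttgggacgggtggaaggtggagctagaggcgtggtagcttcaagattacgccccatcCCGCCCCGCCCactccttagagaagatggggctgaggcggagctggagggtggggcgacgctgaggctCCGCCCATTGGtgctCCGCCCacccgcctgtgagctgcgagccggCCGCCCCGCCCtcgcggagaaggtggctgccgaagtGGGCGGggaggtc
Rab3a (lower after IRI, chr8:70754453-70754702, plus strand, the first of 2 listed starts): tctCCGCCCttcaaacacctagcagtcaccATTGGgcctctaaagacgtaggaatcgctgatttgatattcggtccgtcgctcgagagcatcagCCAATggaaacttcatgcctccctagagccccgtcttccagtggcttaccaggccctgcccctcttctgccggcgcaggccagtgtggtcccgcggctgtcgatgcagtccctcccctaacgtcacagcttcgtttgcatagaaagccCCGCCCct
Rab17 (lower after IRI, chr1:90967668-90967917, minus strand): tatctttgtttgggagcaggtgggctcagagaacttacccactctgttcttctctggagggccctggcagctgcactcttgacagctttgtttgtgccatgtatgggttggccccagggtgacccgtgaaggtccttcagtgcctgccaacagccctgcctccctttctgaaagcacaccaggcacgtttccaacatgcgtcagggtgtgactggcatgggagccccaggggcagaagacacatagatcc
Rab7l1 (lower after IRI, listed by RefSeq as Rab29, chr1:131867027-131867276, plus strand): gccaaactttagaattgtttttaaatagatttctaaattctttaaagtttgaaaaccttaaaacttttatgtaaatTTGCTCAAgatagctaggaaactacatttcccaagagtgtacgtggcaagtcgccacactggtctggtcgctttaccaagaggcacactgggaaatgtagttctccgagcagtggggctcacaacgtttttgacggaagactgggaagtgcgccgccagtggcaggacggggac

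The Rab22a promoter was 70.0% G and C and held 21 CpG dinucleotides, while the Rab17 promoter held 3 CpG dinucleotides and no match to any of the motifs searched. The ratio of observed to expected CpG was 0.69 in Rab22a, 0.56 in Rab11a, 0.78 in Rab3a, 0.75 in Rab7l1 and 0.15 in Rab17. Bases just after the listed start were found in only some GENCODE M21 transcripts of each gene. These were 2 of 3 in Rab22a, 2 of 9 in Rab11a, 2 of 6 in Rab3a, 2 of 4 in Rab7l1 and 1 of 5 in Rab17. Which start these cells use was not tested. Promoters were matched for 46 of the 57 Rab genes, and 8 of these had several listed starts, of which the first was used. The median observed to expected CpG ratio was 0.75 over these 46 promoters and 0.38 over 27025 promoters of all genes. It was 0.77 for 15 Rab genes called higher, 0.50 for 9 called lower and 0.84 for 17 tested without a call, and 0.15, in Rab17, was the lowest of all 46. The GC box was found in 31 of 46 Rab promoters (67.4%) and in 32.9% of all promoters, and the CCAAT box in 22 (47.8%) and in 34.5%. The GC box was found in 12 of 15 Rab promoters called higher and in 3 of 9 called lower, and the CCAAT box in 10 of 15 and 2 of 9. Among the 17 tested without a call, the GC box was found in 12 and the CCAAT box in 7. A link between motif and direction was not tested. TATAAA was found in 3 Rab promoters (6.52%, against 13.0% of all), TGANTCA, an AP-1 site, in 1 (2.17%, against 6.87%), TGACGTC, a cyclic AMP response element, in 2 (4.35%, against 2.88%), TTGCNNAA in 3 (6.52%, against 9.55%), TGTTTAC, a forkhead site, in 1 (2.17%, against 3.09%) and the E-box CACGTG in 4 (8.7%, against 6.05%). Both strands were searched, and a match says only that these letters are in the window.

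Rab transcripts changed in both directions after IRI. Of the 57 genes, 50 passed the filter on low counts, and of these 18 were called higher and 11 lower at an adjusted p under 0.05 (edgeR's quasi-likelihood test, Benjamini-Hochberg adjustment over all 13881 genes tested). That is 58.0% of the tested Rab genes, beside 45.5% of all genes tested. By direction, 36.0% were higher, beside 24.2% of all genes, and 22.0% lower, beside 21.2%. At least 2-fold changes were fewer. Of the 50 tested Rab genes, 3 rose by that much (Rab11a, Rab30 and Rab8b), a smaller share than the 11.5% of all genes. By the same measure 6 of the 50 fell (Rab3a, Rab17, Rab40b, Rab7l1, Rab19 and Rab38), a larger share than the 8.5% of all genes. The IRI samples lay wholly above or wholly below the sham samples for 35 of the 50 Rab genes (70.0%), beside 56.8% of all genes. The median log2 fold change of IRI over sham was 0.05 over the tested Rab genes and 0.00 over all genes, and the median absolute value 0.40 and 0.48. Tested Rab genes were read more deeply than genes in general (median mean log2 CPM 4.82, CPM being counts scaled to a common library size, against 4.11), and the part of depth in the share of calls was not tested.

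The direction of small changes was relative to the scaling of the libraries. With TMM scaling 53.3% of all called genes were higher. With upper-quartile scaling this was 42.0%, and 12 Rab genes were called higher and 14 lower. With library size alone it was 35.6%, and 9 Rab genes were called higher and 15 lower. On the log2 scale the median gene shifted by -0.122 under the upper-quartile method and by -0.201 when only library size was used. Of the 29 called Rab genes, 17 had the same call in all 16 alternative analyses, 12 lost it in at least 1, and 0 reversed. The 17 were Rab1, Rab2b, Rab5a, Rab6a, Rab8b, Rab11a, Rab22a, Rab30 and Rab35 among the higher and Rab3a, Rab7l1, Rab9, Rab17, Rab19, Rab32, Rab38 and Rab40b among the lower.

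**Figure D1:**
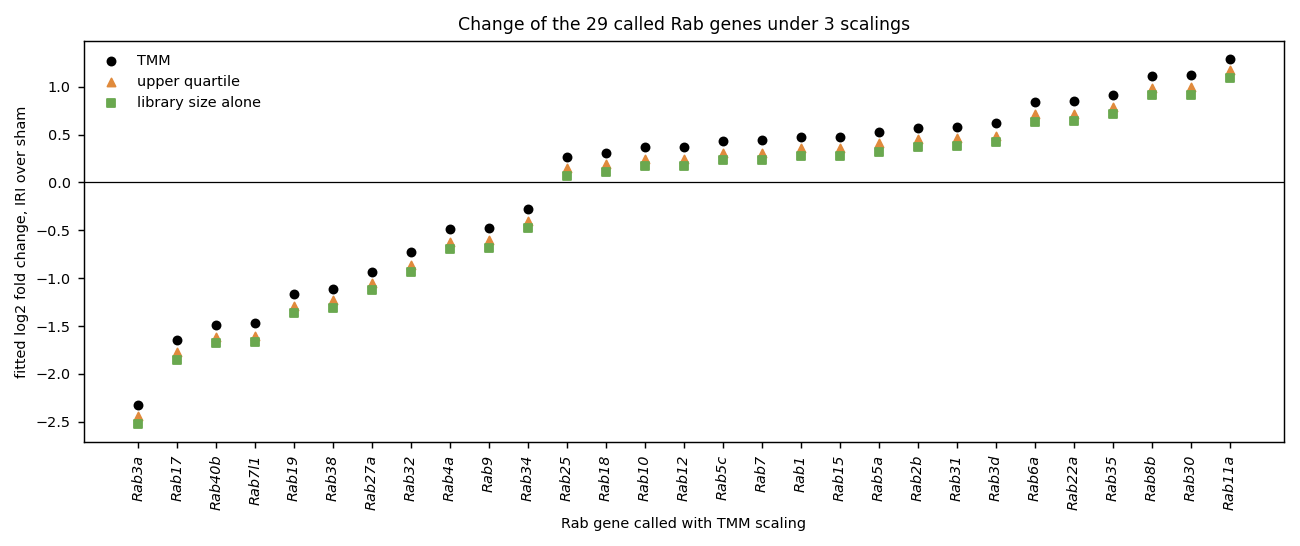
Fitted log2 fold change of IRI over sham (vertical axis) of the 29 called Rab genes (horizontal axis) under TMM (circles), upper-quartile scaling (triangles) and library size alone (squares). Each gene moves down by a similar amount under the other scalings and none crosses 0, with Rab25 coming nearest, from 0.27 to 0.07.

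The level of the whole family was led by a few genes. In sham, the Rab genes summed to 1851 ± 20.6 RPKM, and 5 of them had a mean of at least 100 RPKM, 28 at least 10 RPKM and 13 under 1 RPKM. Rab2a was the highest in each sham sample, and Rab11a in each IRI sample. After IRI the sum was 2113 ± 84.5 RPKM. Without Rab11a it ran from 1694 to 1734 RPKM in sham and from 1742 to 1851 RPKM after IRI. With library size alone the sums of all Rab genes overlapped (1917 to 2039 and 1919 to 2047). On that scale and without Rab11a, the sum was lower in all IRI samples (1636 to 1720, against 1774 to 1890 in sham). The direction of the sum without Rab11a thus depended on the scaling. Among the 28 genes of at least 10 RPKM, the coefficient of variation of RPKM over the 3 samples ran from 0.313% to 13.2% in sham and from 1.78% to 35.1% after IRI. Rab12 varied least and Rab20 most in sham, and Rab34 least and Rab19 most after IRI.

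**Figure D2:**
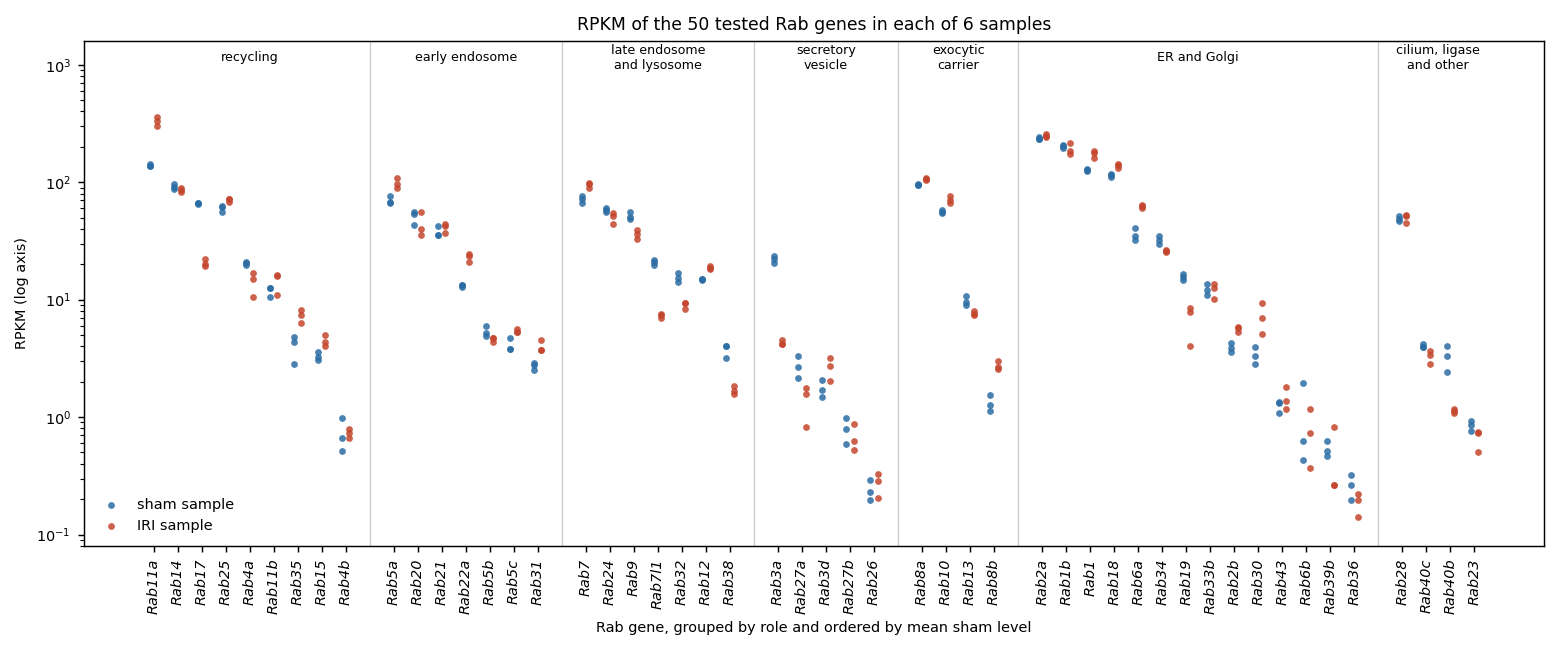
RPKM on a log axis (vertical) of the 50 tested Rab genes (horizontal), grouped by role and ordered by mean sham level, with 1 point per sample (blue sham, red IRI, 3 of each). Rab3a, Rab17 and Rab7l1 show IRI points far below the sham points, Rab11a shows them above, and Rab2a, Rab1b and Rab14 keep them close together.

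Recycling endosome Rabs, which return receptors and pumps to the cell surface, moved apart from each other. Of 9 genes, all tested, 66.7% were called, beside 45.5% of all genes. Among the 9, 4 were higher (Rab11a, Rab35, Rab15 and Rab25), 2 were lower (Rab17 and Rab4a) and 3 had no call. The median log2 fold change of the recycling Rabs was 0.27. Their summed RPKM was 396.5 ± 12.4 in sham and 547.5 ± 31.2 after IRI, and Rab11a alone made the difference positive. The other 8 genes summed to 249.0, 266.2 and 258.1 RPKM in sham and to 213.1, 223.0 and 215.3 RPKM after IRI, lower without overlap. With library size alone the counts were 2 higher and 3 lower, and without single libraries 2 to 5 were higher and 1 or 2 lower.

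Rab11a, which governs slow recycling to the surface, stood at 136.3, 143.7 and 136.2 RPKM in the sham samples and at 333.8, 356.0 and 301.4 RPKM in the IRI samples. All IRI samples lay far above all sham samples. Rab11a rose 2.44-fold (log2 1.29 ± 0.11 SE, adjusted p = 4.26e-05), from 7.49% to 15.6% of the summed Rab RPKM. It was counted from 30871 reads in sham and 72403 after IRI. The level thus moved from the 3rd to the 1st place among Rab genes.

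Rab17, an epithelial Rab tied to apical recycling and transcytosis, was at 66.08, 66.59 and 65.68 RPKM in the sham samples and at 20.08, 19.29 and 22.09 RPKM in the IRI samples. The sham values varied by 0.691% (coefficient of variation), and no IRI sample came near them. It fell 3.15-fold (log2 -1.65 ± 0.09 SE, adjusted p = 8.82e-06) and went from the 10th to the 20th place. Rab11a and Rab17, which both work in recycling in polarised epithelium, changed in opposite directions by calls that were alike in all 16 alternatives.

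Rab35, which works in fast recycling, was lower in abundance and rose in all IRI samples. It stood at 4.789, 4.374 and 2.808 RPKM in sham and 8.232, 7.421 and 6.348 RPKM after IRI (log2 0.91 ± 0.20 SE, adjusted p = 0.00634), with no overlap. Rab15, a Rab of early and recycling endosomes, went from 3.276 ± 0.269 to 4.451 ± 0.477 RPKM (log2 0.48, adjusted p = 0.0190), and its call was lost when sham 1, sham 3 or IRI 2 was omitted (adjusted p 0.0639 to 0.101) and with both other scalings. Rab25, an epithelial relative of Rab11a, went from 59.79 ± 3.49 to 70.18 ± 2.25 RPKM (log2 0.27, adjusted p = 0.0365). Rab25 kept its call without IRI replicate 3 and lost it without any other single library (adjusted p 0.0644 to 0.123), without a filter on low counts, with limma-trend on log2 RPKM, and under the upper-quartile (log2 0.15) and library size scalings (log2 0.07).

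Rab4a, which works in fast recycling from early endosomes, stood at 20.40, 19.74 and 21.01 RPKM in sham and at 10.52, 16.81 and 14.92 RPKM after IRI. IRI replicate 1 was the lowest, and the groups did not overlap. It fell by 0.49 on the log2 scale (SE 0.17, adjusted p = 0.0408), a call lost without any single library except IRI replicate 2 (adjusted p 0.0607 to 0.0818), and the log2 value was -0.31 without IRI replicate 1. Rab14, of the path between Golgi and endosomes, was at 91.58 ± 4.85 and 85.52 ± 3.46 RPKM with no call (log2 -0.06, adjusted p = 0.646). With library size alone it was called lower, at log2 -0.26 (adjusted p = 0.0316). Rab11b, a close paralog of Rab11a, was at 11.90 ± 1.23 and 14.33 ± 2.89 RPKM with no call (log2 0.30, adjusted p = 0.146). Its IRI replicate 3, at 11.01 RPKM, lay within the sham range, and without that sample Rab11b was called higher (log2 0.46, adjusted p = 0.0165). Rab4b had no call at under 1 RPKM.

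Secretory vesicle Rabs, which act in regulated exocytosis, were led in sham by Rab3a. Of 8 genes, 5 were tested: Rab3a and Rab27a were lower, Rab3d was higher, and Rab26 and Rab27b had no call. Among the 5 tested, 60.0% were called, beside 45.5% of all genes. The summed RPKM of the 8 went from 27.7 ± 1.44 in sham to 9.352 ± 0.802 after IRI, of which Rab3a held 22.02 and 4.289 RPKM. The median log2 fold change of the 5 was -0.20.

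Rab3a, best known from the docking of synaptic and secretory vesicles, stood at 20.66, 23.41 and 22.01 RPKM in the sham samples and at 4.194, 4.177 and 4.495 RPKM in the IRI samples. All IRI values lay together, far below the lowest sham value. It fell 5.0-fold (log2 -2.32 ± 0.11 SE, adjusted p = 6.41e-06), the largest fall among the tested Rab genes, and went from the 20th to the 35th place. In GENCODE M21, Rab3a shares exon bases with Mpv17l2 on the opposite strand. Counting ignored strand, so reads of the shared bases cannot be assigned by strand and may be counted for neither gene. Mpv17l2, a mitochondrial protein gene, was at 99.77 ± 5.98 RPKM in sham and 105.0 ± 5.52 RPKM after IRI with no call (log2 0.11, adjusted p = 0.366).

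Rab27a, which tethers secretory and lysosome-related vesicles, was at 2.671, 2.139 and 3.309 RPKM in sham and at 1.767, 0.8195 and 1.565 RPKM after IRI. The groups did not overlap, and IRI replicate 2 was the lowest. It fell by 0.93 on the log2 scale (SE 0.30, adjusted p = 0.0312), and the call was lost when sham 1, sham 3 or IRI 2 was omitted (adjusted p 0.0620 to 0.104). Rab3d, a paralog of Rab3a found on secretory granules of exocrine cells, moved the other way. It stood at 1.495, 1.718 and 2.079 RPKM in sham and at 3.180, 2.703 and 2.027 RPKM after IRI, where replicate 3 lay within the sham range. Its call (log2 0.62 ± 0.20 SE, adjusted p = 0.0329) was lost when sham 1, sham 2, IRI 1 or IRI 2 was omitted (adjusted p 0.0872 to 0.123), with both other scalings, and with limma-trend on log2 RPKM (adjusted p = 0.0624). Rab27b was at 0.795 ± 0.198 and 0.672 ± 0.18 RPKM and Rab26 at 0.2404 ± 0.0496 and 0.2732 ± 0.0631 RPKM, both with no call.

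Within families of close paralogs, the RPKM shares moved with these changes. Rab3a made up 92.7%, 93.0% and 91.1% of the summed RPKM of Rab3a, Rab3b, Rab3c and Rab3d in the sham samples and 56.9%, 59.6% and 68.1% in the IRI samples, while Rab3d went from 7.38% ± 1.1 to 37.5% ± 6.3. Every IRI sample had a smaller Rab3a share than any sham sample. Rab11a made up 67.3%, 66.0% and 64.5% of Rab11a, Rab11b and Rab25 in sham and 79.2%, 80.3% and 79.3% after IRI. The share of Rab25 went from 28.4% ± 0.99 to 17.0% ± 0.82, a difference of -11.4 percentage points that was -7.41 with counts not divided by length, while its own level was called slightly higher. Rab1 made up 38.6% ± 0.78 of Rab1 and Rab1b in sham and 47.7% ± 3.3 after IRI. Rab5a made up 88.1% ± 1.8 of the Rab5 genes and 90.8% ± 1.0, so it led that family in both groups. These shares have no test of their own, and paralogs can lose or exchange reads where their sequences are near-identical.

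**Figure D3:**
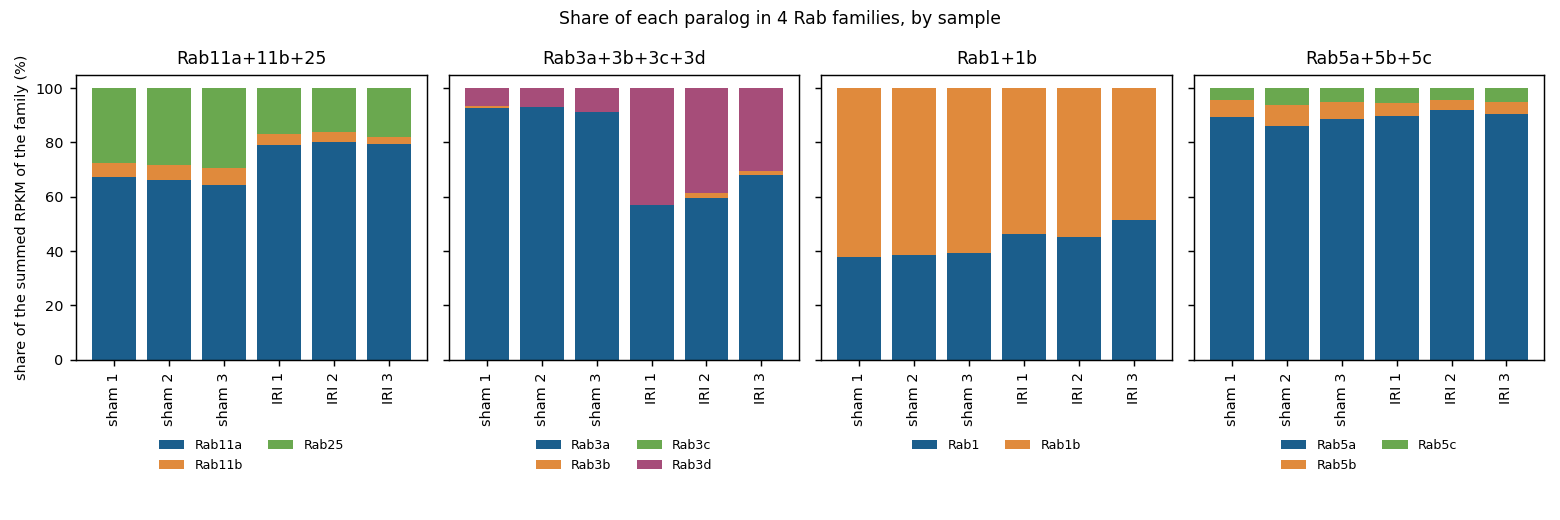
Share of each paralog (stacked bars, in percent) in the summed RPKM of 4 Rab families, with 1 bar per sample. The Rab3a part shrinks from between 91.1% and 93.0% in sham to between 56.9% and 68.1% after IRI, and the Rab11a part grows from between 64.5% and 67.3% to between 79.2% and 80.3%.

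Exocytic carrier Rabs bring newly made membrane proteins from the Golgi and recycling compartments to the surface. All 4 were tested, 2 were higher (Rab8b and Rab10) and 0 were lower, beside 24.2% higher and 21.2% lower among all genes. With only 4 genes, 0 lower calls cannot be told apart from that share of all genes. The count was also 0 by edgeR's quasi-likelihood test at an unadjusted p under 0.05, by DESeq2 and by limma-voom. Limma-trend on log2 RPKM called 1, Rab13, lower (adjusted p = 0.0395). The summed RPKM was 162.3 ± 2.5 in sham and 187.6 ± 7.12 after IRI. With upper-quartile scaling or library size alone, 1 was higher and 1, Rab13, was lower. Rab8b stood at 1.539, 1.276 and 1.117 RPKM in sham and at 2.695, 2.593 and 3.024 RPKM after IRI, with no overlap (log2 1.11 ± 0.16 SE, adjusted p = 0.00073). Its abundant paralog Rab8a, which acts in transport to the apical surface and the cilium, was at 94.19, 94.68 and 96.46 RPKM in sham and at 108.7, 106.3 and 103.9 RPKM after IRI. The groups did not overlap, but Rab8a had no call (log2 0.20 ± 0.09 SE, adjusted p = 0.0884). Rab10, of basolateral and cell-surface delivery, went from 56.16 ± 1.68 to 70.82 ± 5.15 RPKM (log2 0.37, adjusted p = 0.0111), and its call was lost without sham replicate 3 (adjusted p = 0.0676) and under the upper-quartile (log2 0.25, adjusted p = 0.0514) and library size scalings (log2 0.17, adjusted p = 0.191). Rab13, of tight junction traffic, was at 9.730 ± 0.884 and 7.685 ± 0.319 RPKM with no call (log2 -0.30, adjusted p = 0.101).

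Early endosome Rabs, which receive freshly internalised cargo, were higher wherever they were called. Of 7 tested, 4 were higher (Rab22a, Rab31, Rab5a and Rab5c), 0 were lower by edgeR's quasi-likelihood test, and 3 had no call, with a median log2 fold change of 0.43. None was lower by DESeq2, limma-voom or limma-trend on log2 RPKM, and 0 had an unadjusted p under 0.05 in that direction. In the main test 57.1% of the 7 were called, beside 45.5% of all genes. The summed RPKM of the early endosome Rabs was between 171.8 and 199.3 in the sham samples and between 205.7 and 246.8 in the IRI samples. With library size alone, and without sham replicate 3, 2 were higher.

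Rab22a, which sorts cargo from early endosomes, stood at 13.36, 13.26 and 12.79 RPKM in sham and at 20.92, 24.39 and 23.72 RPKM after IRI. No IRI sample reached down to the sham range, and the change was 1.8-fold (log2 0.85 ± 0.10 SE, adjusted p = 0.000204). Rab5a, which drives fusion of early endosomes, was at 75.96, 66.22 and 68.00 RPKM in sham and at 88.86, 109.5 and 97.44 RPKM after IRI. These groups did not overlap either (log2 0.53 ± 0.11 SE, adjusted p = 0.00482), and the log2 value was 0.32 with library size alone. GENCODE M21 places exons of Pp2d1 on the opposite strand of Rab5a, and Pp2d1 was not analysed here.

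The paralog Rab5c was far lower than Rab5a, at 4.097 ± 0.533 and 5.393 ± 0.185 RPKM (log2 0.43, adjusted p = 0.0317). Its call was lost when sham 1, sham 3, IRI 2 or IRI 3 was omitted (adjusted p 0.0739 to 0.149), without a filter on low counts and with both other scalings. Rab31, a relative of Rab22a, was at 2.907, 2.511 and 2.794 RPKM in sham and at 3.707, 3.725 and 4.556 RPKM after IRI. The groups did not overlap (log2 0.58 ± 0.15 SE, adjusted p = 0.0129), a call that did not survive leaving out sham replicate 2 or 3 (adjusted p = 0.0533 and 0.0521) and with library size alone (log2 0.38). Rab5b was at 5.354 ± 0.567 and 4.579 ± 0.193 RPKM with no call (log2 -0.19, adjusted p = 0.28). Rab21, which follows integrins through endosomes, was at 37.79 ± 3.76 and 41.12 ± 3.72 RPKM with no call. Rab20, a Rab that has been placed near the vacuolar proton pump in kidney epithelium, was at 55.99, 43.35 and 53.55 RPKM in sham and at 40.09, 55.31 and 35.78 RPKM after IRI. The groups overlapped and Rab20 had no call (log2 -0.18, adjusted p = 0.425).

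Late endosome and lysosome Rabs changed in both directions. Of 8 genes, 7 were tested, 4 were lower (Rab7l1, Rab38, Rab32 and Rab9), 2 were higher (Rab7 and Rab12) and 1, Rab24, had no call, with a median log2 fold change of -0.48. Among the 7 tested, 85.7% were called, beside 45.5% of all genes. The summed RPKM was 236.2 ± 5.23 in sham and 217.2 ± 8.27 after IRI. With library size alone the counts were 0 higher and 5 lower, and without sham replicate 3 they were 0 higher and 4 lower.

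Rab7l1, which acts at the trans-Golgi and lysosomes and is known for its link to the kinase LRRK2, stood at 19.59, 21.05 and 21.84 RPKM in sham and at 7.374, 7.538 and 7.002 RPKM after IRI. The IRI samples lay close together, well below sham, a 2.78-fold fall (log2 -1.47 ± 0.11 SE, adjusted p = 3.05e-05). Rab32 and Rab38, the pair that builds lysosome-related organelles, fell together. Rab32 was at 14.03, 15.20 and 16.74 RPKM in sham and at 9.317, 9.342 and 8.257 RPKM after IRI (log2 -0.73 ± 0.12 SE, adjusted p = 0.00142). Rab38 was at 4.039, 3.210 and 3.995 RPKM in sham and at 1.830, 1.563 and 1.678 RPKM after IRI (log2 -1.11 ± 0.22 SE, adjusted p = 0.00313). Neither gene had overlapping groups.

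Rab9, which returns mannose 6-phosphate receptors from late endosomes to the Golgi, was at 48.82, 56.08 and 50.18 RPKM in sham and at 36.30, 32.94 and 38.95 RPKM after IRI (log2 -0.48 ± 0.10 SE, adjusted p = 0.00494). Rab7, the main Rab of late endosomes and of their fusion with lysosomes, moved in the opposite direction. It stood at 76.73, 71.43 and 66.61 RPKM in sham and at 95.91, 98.45 and 88.77 RPKM after IRI, with no overlap (log2 0.44 ± 0.10 SE, adjusted p = 0.00699). That call was lost without sham replicate 3 (adjusted p = 0.0580) and with library size alone (adjusted p = 0.0864). Rab12, tied to receptor degradation and autophagy, went from 14.86 ± 0.0466 to 18.72 ± 0.52 RPKM (log2 0.37, adjusted p = 0.00928), and its call was lost without sham replicate 3 (adjusted p = 0.0620) and with library size alone (adjusted p = 0.196). Rab24, tied to autophagy, was at 58.11 ± 1.98 and 50.11 ± 5.06 RPKM with no call (adjusted p = 0.182), and was called lower with upper-quartile scaling (log2 -0.30, adjusted p = 0.0306) and library size alone. Its exons overlap in GENCODE M21 with Prelid1 on the other strand, which rose (log2 0.50, adjusted p = 0.00279, and log2 0.30 with library size alone).

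ER and Golgi Rabs were the most abundant group, with a sum of 787.3 ± 12.4 RPKM in sham and 876.5 ± 26.9 RPKM after IRI. Of 16 genes, 14 were tested, 5 were higher (Rab30, Rab6a, Rab2b, Rab1 and Rab18), 2 were lower (Rab19 and Rab34) and 7 had no call, with a median log2 fold change of 0.07. Called were thus 7 of the 14, near the 45.5% of all genes. Rab2a, of traffic between ER and Golgi and the highest Rab gene in sham, was at 242.8, 233.3 and 234.7 RPKM in sham and at 243.2, 248.7 and 259.6 RPKM after IRI. It had no call (log2 0.12, adjusted p = 0.339), and IRI replicate 1 lay only just above sham replicate 1. Rab1b, of the same step, was at 202.8, 206.6 and 196.6 RPKM in sham and at 185.9, 214.0 and 172.5 RPKM after IRI, with no call (log2 -0.04, adjusted p = 0.762). Its paralog Rab1 was at 123.6, 130.1 and 128.0 RPKM in sham and at 159.3, 177.6 and 183.0 RPKM after IRI. The Rab1 groups did not overlap (log2 0.48 ± 0.10 SE, adjusted p = 0.00504), and the log2 value was 0.28 with library size alone.

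Rab6a, which runs retrograde and exocytic Golgi transport, stood at 40.72, 32.21 and 35.11 RPKM in sham and at 64.42, 63.14 and 60.56 RPKM after IRI. Every IRI sample was well above every sham sample (log2 0.84 ± 0.11 SE, adjusted p = 0.000386). Its exons overlap with Mrpl48 on the other strand, which was called lower (log2 -0.44, adjusted p = 0.0359), a call lost on omitting sham 2, sham 3, IRI 1 or IRI 2 (adjusted p 0.0621 to 0.123). Rab18, of the ER and lipid droplets, stood at 118.5, 114.3 and 110.9 RPKM in sham and at 140.5, 142.3 and 133.1 RPKM after IRI. It did not overlap between groups (log2 0.31 ± 0.09 SE, adjusted p = 0.0206), but lost its call when sham 2, sham 3 or IRI 2 was omitted (adjusted p 0.0672 to 0.128), without a filter on low counts, and with upper-quartile scaling (log2 0.19) and library size alone (log2 0.11).

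Rab30, a Golgi Rab, was at 3.921, 2.841 and 3.323 RPKM in sham and at 5.133, 6.971 and 9.288 RPKM after IRI. The IRI samples were spread but all above sham (log2 1.12 ± 0.24 SE, adjusted p = 0.00475). Rab2b went from 3.898 ± 0.337 to 5.650 ± 0.317 RPKM (log2 0.57, adjusted p = 0.00489, and log2 0.37 with library size alone), and shares exon bases with Tox4, which was called higher too (log2 0.32, adjusted p = 0.0319) but lost that call with both other scalings, without a filter, with limma-trend on log2 RPKM and without any single library except IRI replicate 3 (adjusted p 0.0526 to 0.176). Rab19, assigned to the Golgi, was at 15.70, 14.59 and 16.57 RPKM in sham and at 8.493, 7.848 and 4.070 RPKM after IRI. IRI replicate 3 was the lowest, and all IRI samples lay below sham (log2 -1.16 ± 0.25 SE, adjusted p = 0.00543). Rab34, which links the Golgi, lysosome position and cilium formation, went from 32.23 ± 2.3 to 25.92 ± 0.46 RPKM (log2 -0.28, adjusted p = 0.0387), and kept its call among single-library omissions only without sham replicate 3 (adjusted p 0.0634 to 0.0859 in the others). Its log2 value was -0.48 with library size alone. Rab33b, at 12.23 ± 1.36 and 12.05 ± 1.68 RPKM, had no call. Rab43, Rab6b, Rab39b and Rab36 were at or under 2 RPKM in each sample with no call, and Rab6b, at 0.4294, 1.958 and 0.6262 RPKM in sham, varied the most.

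Beside 45.5% of all genes called, the genes with other roles held 1 call among 4 tested, Rab40b. This gene, which encodes the substrate arm of a ubiquitin ligase, stood at 2.421, 4.003 and 3.334 RPKM in sham and at 1.123, 1.087 and 1.173 RPKM after IRI. The IRI samples lay close together and below all sham samples, a 2.81-fold fall (log2 -1.49 ± 0.22 SE, adjusted p = 0.000739). Its paralog Rab40c was at 4.040 ± 0.135 and 3.268 ± 0.419 RPKM with no call (log2 -0.27, adjusted p = 0.134), and was called lower with upper-quartile scaling and library size alone (adjusted p = 0.0370 and 0.0298). Rab28, a ciliary Rab, was at 48.89 ± 2.54 and 49.61 ± 4.28 RPKM, and Rab23, a ciliary regulator of hedgehog signalling, at 0.8536 ± 0.0845 and 0.6563 ± 0.136 RPKM, both with no call.

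The 7 genes below the filter had few reads. Summed over the 3 libraries of each group, sham and IRI held 12 and 12 reads of Rab33a, 7 and 4 of Rab39, 2 and 15 of Rab44, 18 and 0 of Rab9b, 25 and 10 of Rab37, 20 and 16 of Rab3b and 2 and 0 of Rab3c. In the fit without a filter on low counts, Rab9b was called lower (adjusted p = 0.00892). Its reads were 12, 4 and 2 in the sham libraries and 0 in each IRI library, so sham replicate 1 held most of them. The other 6 had no call in that fit, with adjusted p from 0.0862 (Rab44) to 1.0 (Rab33a), so a change in them was not detectable at this depth.

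**Figure D4:**
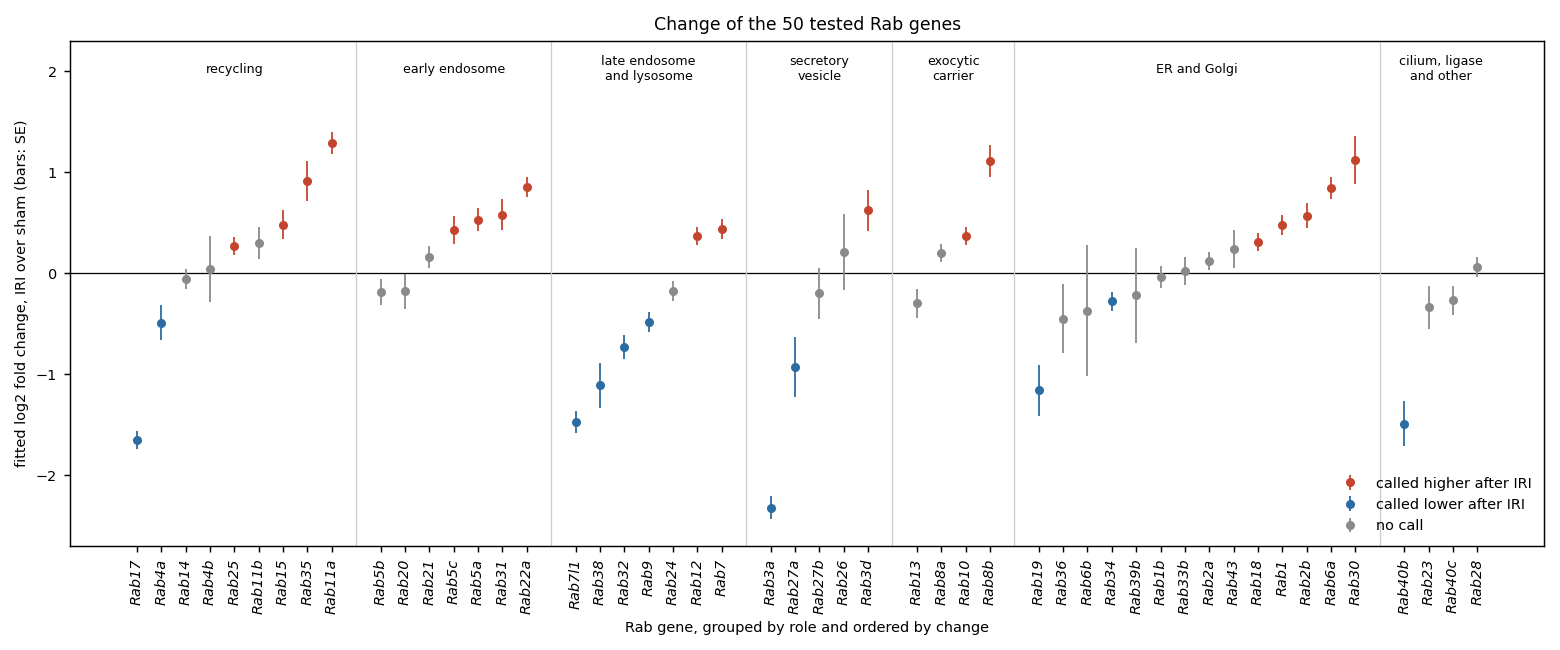
Fitted log2 fold change of IRI over sham (vertical axis, bars are SE) of the 50 tested Rab genes (horizontal axis), grouped by role and ordered by change, with 18 called higher (red), 11 called lower (blue) and 21 without a call (grey). Rab3a (-2.32) and Rab17 (-1.65) are the lowest points and Rab11a (1.29) is the highest.

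**Figure D5:**
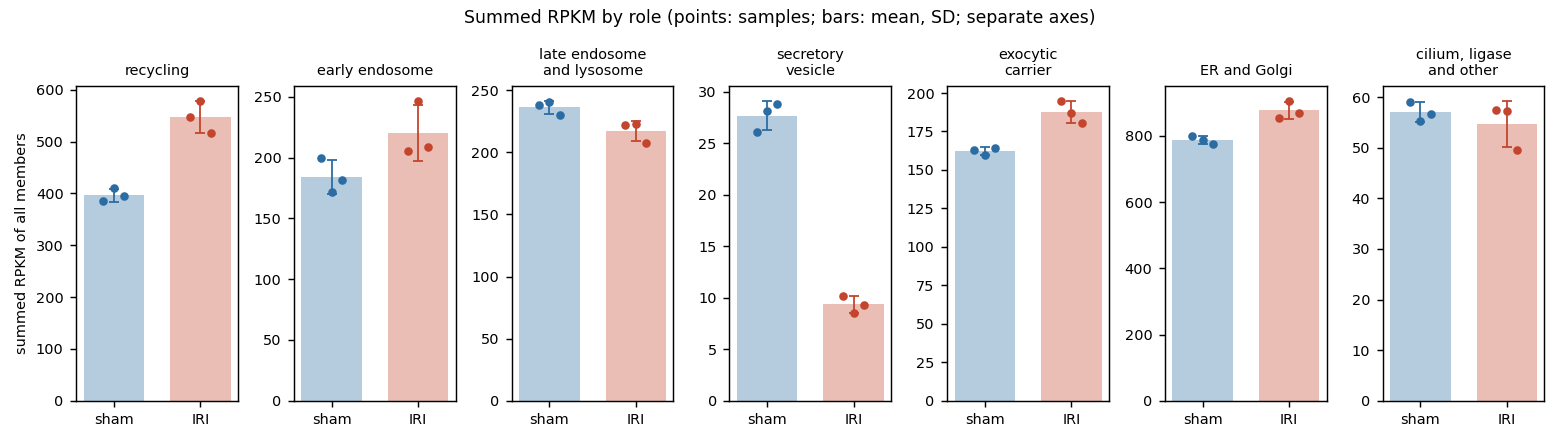
Summed RPKM of all Rab genes of a role (vertical axes, each from 0 and separate) in sham and IRI, with 1 point per sample, bars at the mean of 3 samples and error bars of 1 SD. The recycling sum is higher in all IRI samples (516.7 to 579.0) than in all sham samples (385.3 to 409.9), which turns round without Rab11a (213.1 to 223.0 against 249.0 to 266.2), and the secretory vesicle sum is lower (8.556 to 10.16 against 26.08 to 28.84). Of the mean secretory vesicle sum, Rab3a held 22.02 of 27.7 RPKM in sham and 4.289 of 9.352 RPKM after IRI.

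The sums without Rab11a and with library size alone were computed after the data had been seen. Under the scaling of the deposited RPKM, the sums did not overlap between groups except that of the genes with other roles. With library size alone, the ER and Golgi sums (811.3 to 871.3 in sham, 817.5 to 835.6 after IRI), the exocytic carrier sums (165.8 to 177.8 and 169.9 to 190.9) and the early endosome sums (178.5 to 217.2 and 196.1 to 226.2) overlapped. On that scale the recycling sum was still higher and the late endosome and secretory vesicle sums still lower in all IRI samples, and the sum of the genes with other roles was lower too (46.46 to 56.28 against 57.43 to 64.42). The secretory vesicle sum was the smallest in both groups, and Rab3a held most of it in sham.

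Transcripts of the proteins that switch, escort and obey Rabs were taken from lists of known regulators. The list for GDP dissociation inhibitors, escorts and prenylation also holds membrane proteins, namely the Yipf proteins, Rabac1, Praf2 and Arl6ip5. Of its 15 tested genes 7 were higher, Arl6ip5, Yipf5 and Yipf6 among them. The Golgi membrane protein Yipf4 was the 1 called lower (log2 -0.37, and -0.58 with library size alone). For the whole list, 53.3% were called beside 45.5% of all genes. Rabif, which binds nucleotide-free Rabs, rose by 0.58 and the prenyltransferase subunit Rabggta by 0.54 on the log2 scale (adjusted p = 0.00134 and 0.00433). Rabif and Rabggta stood at log2 0.38 and 0.34 with library size alone.

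Of 43 tested exchange factors, 10 were higher and 5 lower, 34.9% called beside 45.5% of all genes. Rin1, an exchange factor for Rab5, went from 0.8532 ± 0.236 to 7.597 ± 1.08 RPKM, a 9.13-fold rise (log2 3.19 ± 0.22 SE, adjusted p = 1.86e-05). Its relative Rin2 rose 1.95-fold and Als2cl, a relative of the Rab5 exchange factor alsin, 2.46-fold. Madd, an exchange factor for Rab3 and Rab27, fell from 1.160 ± 0.13 to 0.5607 ± 0.155 RPKM (log2 -1.01 ± 0.22 SE, adjusted p = 0.00511, and -0.65 on the log2(RPKM + 0.5) scale). Rab3ip, an exchange factor for Rab8 that is also called rabin8, fell by 0.45 on the log2 scale (adjusted p = 0.0179), a call lost without IRI replicate 2 (adjusted p = 0.0567).

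Of 39 tested GTPase-activating proteins, 10 were higher and 9 lower, 48.7% called and so near the 45.5% of all genes. Tbc1d15, which acts on Rab7, rose 3.44-fold, from 11.94 ± 2.0 to 40.07 ± 0.956 RPKM (log2 1.78 ± 0.13 SE, adjusted p = 2e-05). Rab3gap2, the noncatalytic subunit of a complex that acts on Rab3 and also serves Rab18, rose 3.02-fold (adjusted p = 5.16e-05), and Usp6nl, which acts on Rab5, 2.68-fold (adjusted p = 0.00023). Tbc1d24 fell 3.79-fold (log2 -1.92, adjusted p = 9.29e-05, and -1.15 on the log2(RPKM + 0.5) scale), Tbc1d14, a regulator of autophagy, 1.95-fold and Tbc1d17 1.78-fold.

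Of 73 tested effectors, 18 were higher and 19 lower, 50.7% called beside 45.5% of all genes. Effectors of Rab11 moved both ways. Rab11fip1 went from 2.709 ± 0.0705 to 6.263 ± 2.52 RPKM (log2 1.25 ± 0.29 SE, adjusted p = 0.0113, and 0.0503 without a filter on low counts). Rab11fip4 fell 3.29-fold (log2 -1.72 ± 0.20 SE, adjusted p = 0.000248) and Rab11fip3 fell 2.34-fold (log2 -1.22 ± 0.11 SE, adjusted p = 5.32e-05). The exocyst subunit Exoc5 rose 2.23-fold. Rilpl2 and Rilpl1, which bind Rab8 and Rab10 and regulate cilia, fell 4.31-fold and 2.36-fold (adjusted p = 0.000763 and 0.000797). The Rab27 effector Sytl2 rose 3.03-fold (adjusted p = 0.00566). The next 2 subsets were picked from the list after values were seen, and their calls stand beside 45.5% of all genes called. Neither subset is complete, and listed effectors outside them also went both ways. The Rab5 subset leaves out Rufy1 (log2 -1.0), Inpp5b (log2 -0.64) and Kif16b (log2 -0.49), which were called lower, and Ocrl, which had no call. Of 9 tested effectors of Rab3 or Rab27, Rims2 (log2 -2.63), Rph3al (log2 -0.67) and Sytl4 (log2 -1.23) were called lower, Unc13d (log2 2.12), Sytl2 (log2 1.60) and Sytl5 (log2 0.57) higher, and Sytl1, Mlph and Exph5 had no call. On the log2(RPKM + 0.5) scale, which understates changes of low genes, the difference was -1.43 for Rims2, -0.69 for Sytl4 and 1.04 for Unc13d. The call of Sytl5 was lost with DESeq2, with both other scalings, without a filter, and without any single library except IRI replicate 3 (adjusted p 0.0542 to 0.162), and Mlph was called higher without IRI replicate 3 (adjusted p = 0.00574). Of 7 tested effectors of Rab5, Appl1 (log2 1.10), Eea1 (log2 0.68) and Ankfy1 (log2 0.42) were called higher, Rabep2 (log2 -0.70) and Appl2 (log2 -0.46) lower, and Rabep1 and Zfyve20 had no call. The call of Ankfy1 was lost when sham 1, sham 3 or IRI 2 was omitted (adjusted p 0.0682 to 0.112), with both other scalings, without a filter and with limma-trend on log2 RPKM. That of Appl2 was lost when sham 1, sham 2 or IRI 2 was omitted (adjusted p 0.0519 to 0.0528), and that of Rabep2 without sham replicate 2 (adjusted p = 0.0505). When only library size was used, Rabep1 had a call too, at log2 -0.29 (adjusted p = 0.0293).

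Of 37 tested SNAREs and fusion genes, 15 were higher and 7 lower, 59.5% called beside 45.5% of all genes. The apical syntaxin Stx3 went from 9.828 ± 0.771 to 32.28 ± 1.43 RPKM (log2 1.75 ± 0.10 SE, adjusted p = 8.82e-06). The Munc18 protein Stxbp3a, which acts on syntaxins, rose 2.25-fold, Stx6 1.88-fold and Vamp3, a SNARE of recycling endosomes, 1.74-fold. Snap47 and Stx16 fell 1.51-fold and 1.39-fold. Vamp2, a SNARE of regulated exocytosis, fell by 0.45 on the log2 scale (adjusted p = 0.0230), a call lost when sham 2, sham 3, IRI 1 or IRI 2 was omitted (adjusted p 0.0526 to 0.0778). The calcium sensor Syt7 was called lower (log2 -1.79 ± 0.56 SE, adjusted p = 0.0406), and lost the call without any single library except sham replicate 1 (adjusted p 0.0636 to 0.105), with limma-voom and without a filter. Of 5 tested Rab-like proteins 3 were called, 60.0% beside 45.5% of all genes. Rasef rose (log2 0.73, adjusted p = 0.00478), and Rabl2 and Ift27, which work in intraflagellar transport, fell (log2 -0.95 and -0.57, adjusted p = 0.000963 and 0.00768).

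Other Rab features with similar sequences were looked at beside the 57. Rab42-ps, annotated as a pseudogene, summed to 231 reads in sham and 89 reads after IRI and was called lower (log2 -1.30, adjusted p = 0.00436). Rab11b-ps2 had 51 and 56 reads and no call. In GENCODE M21, 20 of the 57 Rab genes share exon bases with another gene, 15 of them with a gene on the opposite strand. Reads left as ambiguous between genes were 1.579% to 1.727% of the reads per sample and were not used. For these 20 genes, reads of shared bases may thus be missing from both partners. Where the gene models of the counts lacked the partner, its reads may be counted for the Rab gene.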

How the data were processed

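RNA of 6 samples, 3 sham and 3 IRI by their titles, was sequenced after SMARTer amplification, per the labels' protocols. The deposited read counts are whole reads per gene, not normalized and counted without regard to strand, per the file names. The submitters' processing notes list STAR, HTSeq, edgeR and the build mm9; none comes with a version. The other deposited values are RPKM, per the file headers. They equalled those counts divided by the listed length and by an effective library size (0.9166 to 1.0898 of the gene reads), so they are not independent of the counts.

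Gene reads ran from 17421669 to 24245330 per sample, 49.105% to 50.708% of all reads recorded, and 39.949% to 42.357% had no unique alignment. The file ends in 5 entries without a gene, which were not used. Same-group libraries differed beyond counting noise, so no pair was merged. The test was edgeR 4.0.16 under R 4.3.3 (TMM, filterByExpr, robust quasi-likelihood fit, group as the only term, Benjamini-Hochberg over 13881 genes), after a check on simulated counts. Standard errors came from the F statistic. The 16 alternatives were DESeq2 1.42.0, limma 3.58.1 (voom on counts, and trend on log2 of the deposited RPKM plus 0.5 or 0.1), RLE, upper-quartile and library size scaling, 2 other filters (none, or CPM of at least 1 in 3 samples), a replicate block, and each sample left out.

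The Rab genes, their roles (1 per gene, from general knowledge, although several Rabs act at more than one compartment), the regulator and marker lists and the tests were chosen with earlier results of these data known. The rule for named genes gave in full Rab3a, Rab17, Rab11a, the 6 highest Rab genes in sham, and the 8 higher and 8 lower called Rab genes with the largest change. Of each regulator list it named up to 4 called genes in each direction and at a mean log2 CPM of 3 or more, of which a part is described. Promoters are from RefSeq on GRCm38.p6 and exon overlaps from GENCODE M21, which are another build than that of the files, so no coordinate of the files was used with them.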

Additional observations from a re-analysis of the deposited data

How the results depend on the processing

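The number of Rab genes called higher was 18 with TMM and 9 with library size alone, and it ran from 10 (without sham replicate 3) to 18 when single samples were left out. The number called lower was 11, and ran from 8 to 9 in those omissions and from 10 to 15 in the other alternatives. DESeq2, limma-voom, RLE scaling and the stricter filter each called 18 Rab genes higher and 11 lower. Of the 21 tested Rab genes without a call, 5 gained one in some alternative (Rab11b, Rab13, Rab14, Rab24 and Rab40c). With the replicate block, 17 were higher and 10 lower, Rab34 and Rab3d losing the call (adjusted p = 0.0526 and 0.0624). Same-numbered samples correlated at 0.182, 0.095 and 0.178 in their deviations from the group means. Samples of different number correlated at -0.172 to 0.03, so every sample correlated best with its own number. The main test did not take the numbers as pairs, and the replicate block is the alternative that does. With counts not divided by length, the share of Rab3a in its family moved by -42.7 percentage points in place of -30.7, that of Rab11a by 10.5 in place of 13.7, and that of Rab25 by -7.41 in place of -11.4. Without that division each paralog is weighted by its listed length. That length is 5561 bases for Rab3d and 2381 for Rab3a, and 3332 for Rab11a and 1728 for Rab25. Without the filter, 15 Rab genes were higher and 12 lower, the 12th being Rab9b, which the filter removes. For the other 6 genes below the filter, depth limits any comparison.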
